A study of Mus musculus with 18 samples.

Results

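Developing T cells build their antigen receptors by cutting and joining gene segments, and 6 genes of that stage were followed here across LUBAC mutants: *Rag1*, *Rag2*, *Dntt*, *Ptcra*, *Arpp21* and *Cd24a*. They were chosen as a named set and found by Entrez Gene ID, 6 of the 27179 genes in the count files, and all 6 passed the filter on low counts. RNA was sequenced from CD69+ thymocytes of 9 mice (3 of each genotype), sorted into an MHC I low and an MHC I high fraction, so that each of the 6 groups held 3 libraries and each mouse gave 2 of the 18. CD69 marks thymocytes that have received a signal through the T-cell receptor and MHC I rises with maturation, which makes MHC I high cells the later of both stages. The comparisons ask how these transcripts change between both stages, and whether that change depends on HOIL-1 or SHARPIN, components of the linear ubiquitin chain assembly complex (LUBAC).

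WT mice were C57BL/6. Hoil ΔCd4 mice delete floxed *Rbck1*, the gene of HOIL-1, through a *Cd4*-driven Cre that becomes active in αβ T-lineage thymocytes, so cells before that stage still have the gene. Sharpin cpdm mice have no SHARPIN in any cell, T cell or other, and came from a C57BL/Ka stock crossed onto C57BL/6. The paper describes their background as still largely C57BL/Ka. Strain and loss of SHARPIN therefore cannot be told apart where these mice are compared with the other genotypes. Mice were not pooled, and their ages for this experiment were not given in the sources used here. In every group, dead cells, cells with surface CD25 or CD44 and cells with markers of NK, B, myeloid and γδ T cells were gated out.

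In the CD4+CD8+ double-positive (DP) thymocyte, the RAG1 and RAG2 proteins together form the recombinase that cuts at the signal sequences flanking V, D and J segments, and both are needed. Terminal transferase, encoded by *Dntt*, adds nucleotides that no template specifies at the joints. The pre-T-cell receptor α chain, encoded by *Ptcra*, pairs with a rearranged β chain before an α chain exists, and recombinase expression normally ends once a receptor has been positively selected.

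Libraries held between 10577966 and 16266128 counted reads, with a median of 13979793. *Rbck1* was at 217 to 268 CPM (read counts scaled to library size by TMM) in WT libraries, and its Hoil ΔCd4 means were 0.544 CPM (MHC I low) and 5.72 CPM (MHC I high). The cpdm allele is a frameshift, so the *Sharpin* transcript checks that label only weakly: its means were 71.5 and 73.8 CPM in Sharpin cpdm against 91.3 and 89.7 CPM in WT. *H2-K1*, a gene of MHC I, averaged 216 CPM in the WT low and 2003 CPM in the WT high fraction. By *Xist* and *Ddx3y* levels, all 3 WT mice, Hoil ΔCd4 mouse 3 and Sharpin cpdm mouse 2 were female and the other 4 were male, so sex differed between the genotypes. Values for the 5 female mice alone are given where they change a call, and rest there on 1 mouse of each mutant, which is assumed to vary like the WT mice. The T-lineage markers summed to between 3970 and 5220 CPM in each library. Among 8 B-lineage markers, which bear on *Rag1*, *Rag2* and *Dntt* because B-cell progenitors use these genes too, *Pax5* was at 0 in 16 of 18 libraries. *Cd79a* (0.581 to 2.28 CPM), *Cd79b* (1.73 to 4.68 CPM) and *Vpreb1* (0.345 to 2.34 CPM) were read in all 18. The summed level of the B-lineage list stayed between 4.71 and 7.40 CPM in all libraries. The sums were 23.2 to 33.7 CPM for myeloid and dendritic, 6.03 to 11.9 CPM for thymic epithelial and 0.345 to 1.66 CPM for erythroid markers. *Siglech* was at 0 in 14 and *Foxn1* in 17 libraries. *Cst3* (16 to 28.4 CPM), *Itgam* (1.92 to 8.13 CPM) and *Epcam* (5.6 to 11.6 CPM) of these lists were read in all 18. Markers of γδ and innate-like cells summed to 23.4 to 54.4 CPM and differed between genotypes. In MHC I high libraries the sums were 29.7 to 36.1 (WT), 41.2 to 54.4 (Hoil ΔCd4) and 33.6 to 39.9 CPM (Sharpin cpdm). In MHC I low libraries they were 23.4 to 32.7, 34.7 to 41 and 35.1 to 50.4 CPM. The part of such cells in the results was not tested.

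*Rag1* (Entrez 19373) and *Rag2* (19374) lie beside each other on chromosome 2 of GRCm38, at chr2:101638252-101649532 on the minus strand and chr2:101624712-101632528 on the plus strand, 5723 bases apart. *Dntt* (21673) is at chr19:41029275-41059525 (plus), *Ptcra* (19208) at chr17:46755663-46763712 (minus), *Arpp21* (74100) at chr9:112065091-112236288 (minus) and *Cd24a* (12484) at chr10:43579169-43584265 (plus). All 6 are protein-coding, and the values are reads over their exons. The strand setting of the counting was not given in the sources used here, so reads of overlapping genes could not be separated. In GENCODE, exons of *Iftap* (B230118H07Rik) share 208 bases with *Rag2* and 80 with *Rag1*, and those of 2900079G21Rik share 580 with *Arpp21*. These neighbours had group means between 1.00 and 1.53 CPM (*Iftap*) and between 1.12 and 4.06 CPM (2900079G21Rik).

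Because the transcript levels of these genes differed between stages and genotypes, the 250 bases before the annotated start of the 4 genes with 1 window in the RefSeq table (GRCm38.p6) are shown, 5′ to 3′ on the gene's strand, with each E box (CANNTG) in capitals. E boxes are bound by E proteins, which thymocytes use at the recombination stage. The windows are chr2:101649533-101649782 (*Rag1*), chr2:101624462-101624711 (*Rag2*), chr19:41029025-41029274 (*Dntt*) and chr17:46763713-46763962 (*Ptcra*).
Rag1: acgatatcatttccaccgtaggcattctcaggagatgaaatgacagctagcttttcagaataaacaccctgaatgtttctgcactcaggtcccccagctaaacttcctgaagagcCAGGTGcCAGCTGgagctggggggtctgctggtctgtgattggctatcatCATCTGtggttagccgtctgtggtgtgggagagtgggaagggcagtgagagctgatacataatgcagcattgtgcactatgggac
Rag2: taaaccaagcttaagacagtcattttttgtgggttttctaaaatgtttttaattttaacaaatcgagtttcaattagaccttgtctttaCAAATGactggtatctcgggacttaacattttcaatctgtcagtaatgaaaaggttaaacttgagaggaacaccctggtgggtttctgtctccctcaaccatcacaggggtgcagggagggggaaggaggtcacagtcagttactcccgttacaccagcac
Dntt: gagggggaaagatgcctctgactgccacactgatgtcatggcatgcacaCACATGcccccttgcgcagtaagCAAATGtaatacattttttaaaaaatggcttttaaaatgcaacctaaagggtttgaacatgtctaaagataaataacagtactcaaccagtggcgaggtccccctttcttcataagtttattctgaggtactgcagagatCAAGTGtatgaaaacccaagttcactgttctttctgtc
Ptcra: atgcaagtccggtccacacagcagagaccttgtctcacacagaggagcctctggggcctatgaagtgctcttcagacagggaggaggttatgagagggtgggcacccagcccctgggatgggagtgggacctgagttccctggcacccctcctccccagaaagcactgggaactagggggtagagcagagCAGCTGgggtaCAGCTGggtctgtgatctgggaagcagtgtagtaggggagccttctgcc

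An E box stood in all 4 windows, 3 in *Rag1*, 1 in *Rag2*, 3 in *Dntt* and 2 in *Ptcra*, and 66.2% of all 32851 mouse windows of this length hold at least 1. The narrower form CAGNTG, read on both strands, was found at 3 places in *Rag1* and 2 in *Ptcra* and not in the other two windows. It occurs in 44.8% of all windows. The RUNX motif TGTGGT occurred 81 and 67 bases before the *Rag1* start, the first of them overlapping the E box that begins 85 bases before it, and 14% of all windows hold this motif. The Ikaros core TGGGAA (21.6% of windows) was found 52 bases before *Rag1* and 84 and 32 bases before *Ptcra*. No match to CTTTGA (TCF/LEF), the kappa B motif or TATAAA was in these letters. A match is a run of letters, not a measured binding site. *Arpp21* has 9 start sites in the table, none of which was singled out, and *Cd24a* was not matched.

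**Figure D1:**
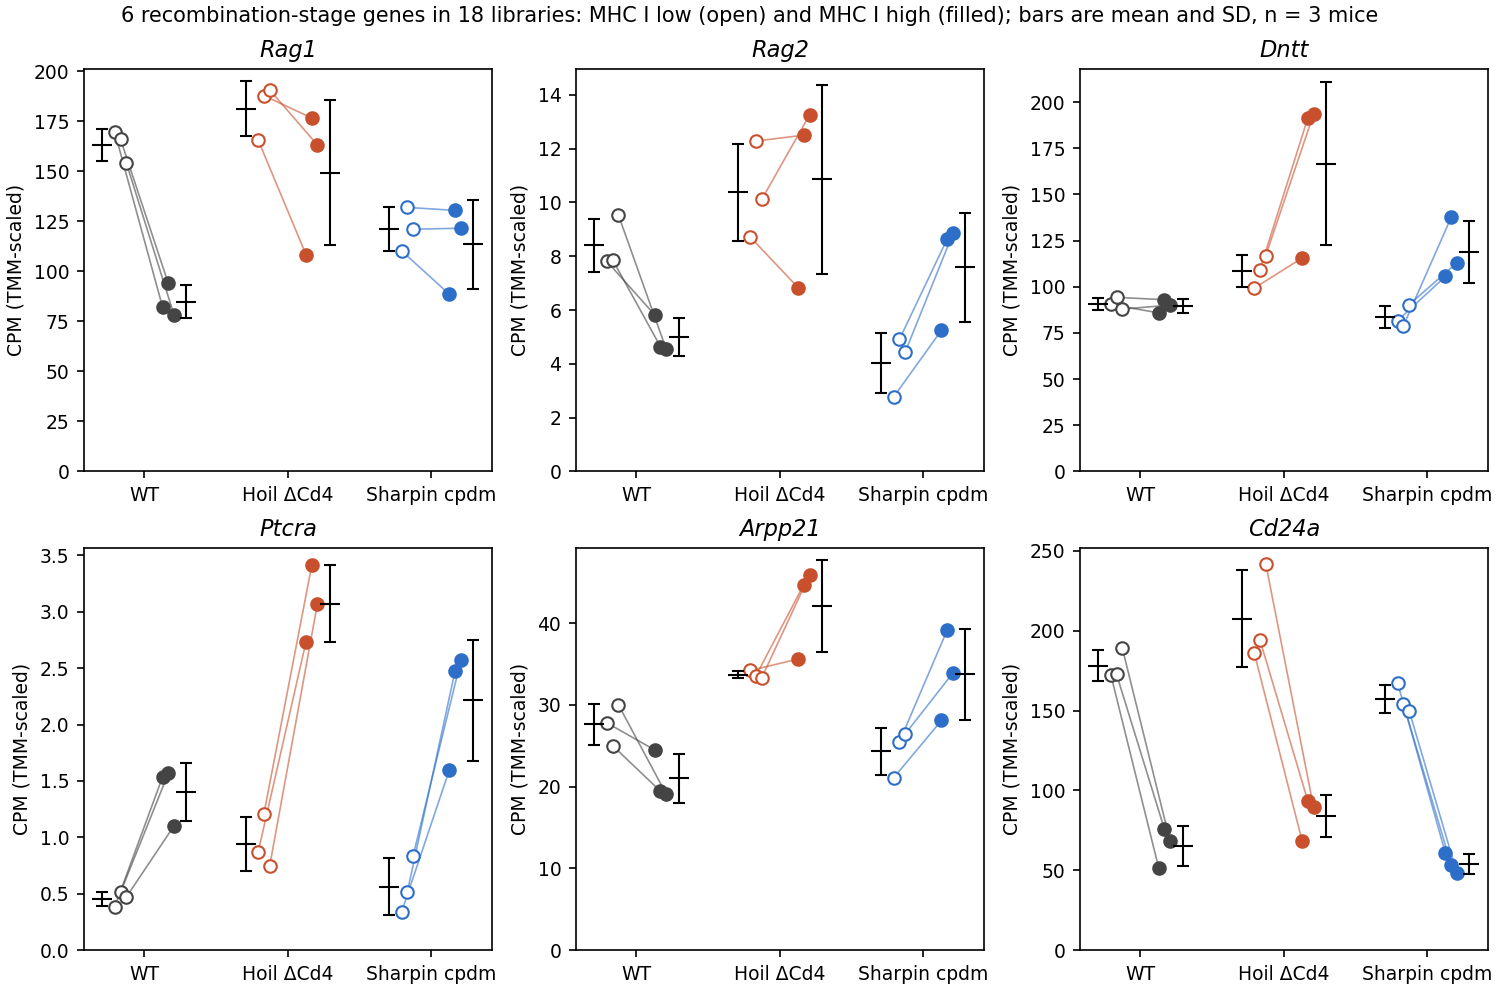
Level of each gene in all 18 libraries (y axis, TMM-scaled CPM, starting at 0), with open points for MHC I low and filled points for MHC I high cells, a line joining the fractions of 1 mouse, and bars giving mean and SD of 3 mice. In WT, *Rag1* lies at 154 to 169 CPM in MHC I low and at 78.1 to 93.9 CPM in MHC I high cells, whereas *Dntt* stays within 85.8 to 94.3 CPM.

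In WT cells the genes of this set separated between the stages. *Rag1*, *Rag2*, *Arpp21* and *Cd24a* were lower in the MHC I high fraction, *Ptcra* was higher, and *Dntt* was not called. These 5 of 6 genes were called by limma at an adjusted p under 0.05, 1 higher and 4 lower. In this comparison 54.4% of all 12798 genes tested were called, 27.5% higher and 26.8% lower. The median log2 change of the 6 was -0.61, against -0.0042 over all genes tested.

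*Rag1*, the catalytic subunit of the recombinase, was at 169, 166 and 154 CPM in the MHC I low cells of WT mice 1, 2 and 3 and at 82.1, 93.9 and 78.1 CPM in their MHC I high cells. Every high library was under every low library. The mice kept 48.5%, 56.6% and 50.6% of their MHC I low level, and the log2 change was -0.997 ± 0.13 (SE, limma adjusted p = 1.94e-05). *Rag2*, its obligate partner, was at 7.81, 7.87 and 9.54 CPM in the low and at 5.82, 4.64 and 4.55 CPM in the high fraction of the same mice. It fell by 0.78 ± 0.18 on the log2 scale (limma adjusted p = 0.000551), also without overlap. This call rested in part on WT mouse 3, without which the adjusted p was 0.0711. In a bulk sample, fewer cells with a transcript and less of it per cell cannot be told apart.

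*Dntt*, the terminal transferase gene, did not follow the recombinase. Its WT levels were 90.5, 94.3 and 87.9 CPM in MHC I low and 85.8, 93.0 and 90.1 CPM in MHC I high cells. Both fractions overlapped, and the log2 change was -0.018 with a 95% interval from -0.28 to 0.24 (limma adjusted p = 0.917). This interval does not include the fall of *Rag1*.

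*Ptcra* was the scarcest of the set, with 6 to 8 reads per WT MHC I low library and 16 to 25 per WT MHC I high library. Its levels were 0.384, 0.512 and 0.469 CPM in the low and 1.54, 1.57 and 1.10 CPM in the high fraction. It was higher in every MHC I high library than in any MHC I low library of WT, by 1.38 ± 0.26 on the log2 scale (limma adjusted p = 4.27e-05). The summed level of 8 markers of early double-negative thymocytes lay between 42.1 and 52.3 CPM in WT low and between 142 and 169 CPM in WT high libraries. The largest shifts in mean were those of *Dtx1* (12.6 to 88.2 CPM) and *Kit* (9.64 to 35.2 CPM). Of 6 of these markers tested *Dtx1*, *Kit* and *Notch3* were called higher and 0 lower, where 27.5% of all genes were higher and 26.8% lower. The rest of the list did not share the rise. *Il2ra* averaged 16.0 CPM in the low and 13.6 CPM in the high fraction, *Lyl1* 1.28 and 1.16, *Hes1* 0.429 and 0.203 and *Hhex* 0.121 and 0.152. *Cd34* was at 0 in 17 of 18 libraries. The part of early double-negative cells in the *Ptcra* result was not tested.

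*Arpp21* encodes an RNA-binding phosphoprotein abundant in DP thymocytes. It was at 27.8, 25.01 and 30.03 CPM in WT low and at 24.5, 19.4 and 19.1 CPM in WT high cells, where it fell by 0.44 ± 0.10 on the log2 scale (limma adjusted p = 0.00037). The fractions did not overlap, but by little, and without WT mouse 3 the adjusted p was 0.102. *Cd24a*, which encodes the surface glycoprotein CD24 that thymocytes lose as they mature, was at 173, 173 and 189 CPM in the low and at 51.7, 75.9 and 68.2 CPM in the high fraction. It showed the largest fall of the set, -1.46 ± 0.11 on the log2 scale (limma adjusted p = 1.49e-08), and kept 30% to 43.9% of the MHC I low level in the 3 mice.

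Levels between genes can be compared only per length. In WT MHC I low cells the mean RPKM (CPM per kilobase of counted exon) was 98.1 ± 5.3 (SD, n = 3) for *Cd24a*, 42.7 ± 1.5 for *Dntt*, 24.5 ± 1.2 for *Rag1*, 2.57 ± 0.23 for *Arpp21*, 2.48 ± 0.29 for *Rag2* and 0.355 ± 0.051 for *Ptcra*. *Arpp21* and *Rag2* did not differ beyond their spread. In WT MHC I high cells *Dntt*, at 42.1 ± 1.7 RPKM, stood above *Cd24a* at 36.0 ± 6.8, though both spreads meet, and *Rag1* was at 12.7 ± 1.2.

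**Figure D2:**
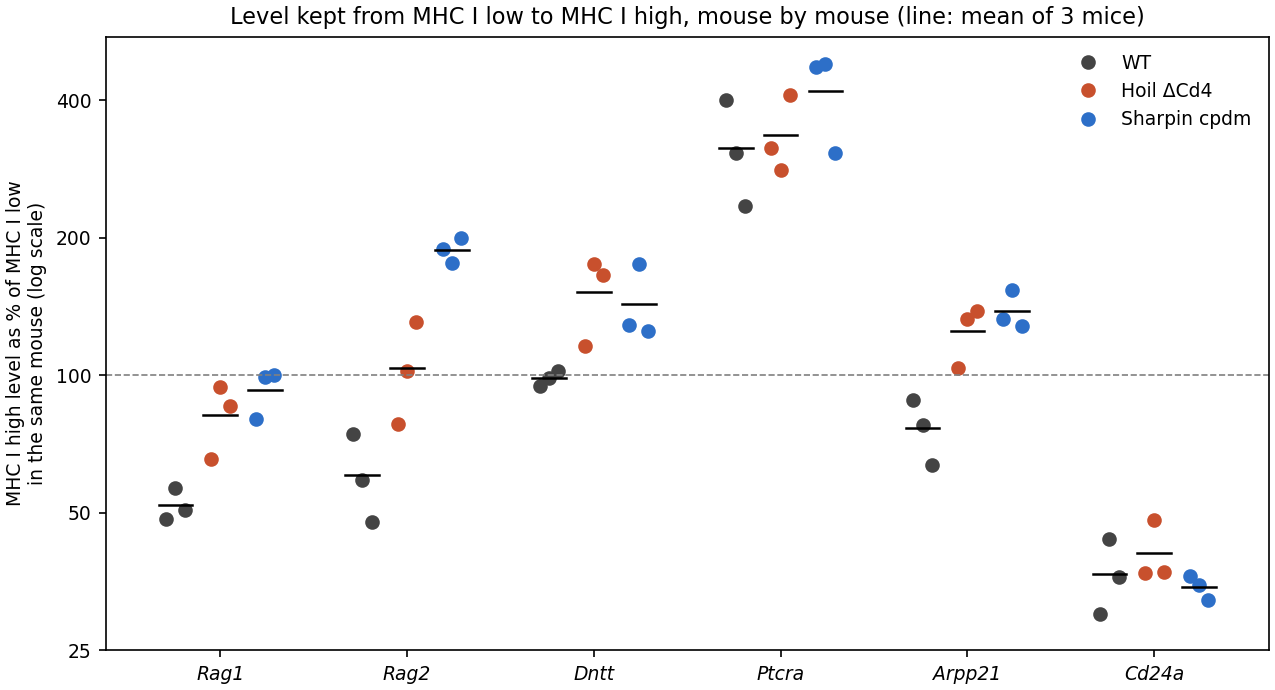
MHC I high level of each gene as a percentage of the MHC I low level of the same mouse (y axis, log scale; dashed line at 100%), with 1 point per mouse and a line at the mean of 3 mice. For *Rag1*, the WT mice lie at 48.5% to 56.6%, under every Hoil ΔCd4 mouse (65.4% to 94.1%) and every Sharpin cpdm mouse (80.3% to 100%), while the *Cd24a* points of all genotypes lie between 30% and 48.2%.

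In the mutants the step to the MHC I high fraction differed from that of WT by test for 1 gene of the set in Hoil ΔCd4 and for 3 in Sharpin cpdm. In Hoil ΔCd4 cells 3 genes rose and 1 fell with maturation, by limma, where 45.3% of all genes were called (23.5% higher, 21.7% lower). In Sharpin cpdm cells 4 rose and 1 fell, where 54.6% were called (27.2% higher, 27.4% lower). Whether a change differed from that of WT was tested as the difference of both changes, and here 0.398% of all genes were called (0.297% higher) for Hoil ΔCd4 and 3.13% (2.2% higher) for Sharpin cpdm. The genes that passed were *Arpp21* for Hoil ΔCd4 and *Rag1*, *Rag2* and *Arpp21* for Sharpin cpdm, all with a higher value in the mutant. Both tests share the WT libraries.

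*Rag1* in Hoil ΔCd4 mice 1, 2 and 3 was at 165, 188 and 191 CPM in the MHC I low and at 108, 177 and 163 CPM in the MHC I high fraction. Only mouse 1 came near the WT drop, and the log2 change was -0.26 ± 0.16 (limma adjusted p = 0.203). All 3 mice were lower in the high fraction, and with each mouse as a fixed block the fall was called (-0.355, limma adjusted p = 0.00157). In Sharpin cpdm mice it was at 110, 132 and 121 CPM in the low and 88.5, 130 and 122 CPM in the high fraction, a log2 change of -0.078 ± 0.14 (limma adjusted p = 0.65). The change exceeded that of WT by 0.92 ± 0.19 for Sharpin cpdm (limma adjusted p = 0.0201) and by 0.73 ± 0.20 for Hoil ΔCd4, where the adjusted p of 0.196 missed the threshold. The Hoil ΔCd4 difference was called with each mouse as a fixed block (0.605, limma adjusted p = 0.015) and in the 5 female mice (0.779, 0.000605). The Sharpin cpdm call was lost without any single WT mouse or without Sharpin cpdm mouse 2 or 3, with adjusted p between 0.0709 and 0.138, and under edgeR (0.179) or no mouse block (0.0755).

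*Rag2* was at 8.71, 12.3 and 10.1 CPM in MHC I low and 6.83, 12.5 and 13.2 CPM in MHC I high cells of Hoil ΔCd4 mice, which overlapped (log2 change 0.094, 95% interval -0.35 to 0.54, limma adjusted p = 0.755). Its difference from the WT change was 0.87 (limma adjusted p = 0.212), and 1.18 in the female mice (0.0482). In Sharpin cpdm mice it went the opposite way to WT. It was at 2.77, 4.91 and 4.43 CPM in the low and at 5.25, 8.64 and 8.85 CPM in the high fraction, so that the high level was 189%, 176% and 200% of the low level. The rise was 0.92 ± 0.18 on the log2 scale (limma adjusted p = 0.000147), and the difference from the WT change, 1.70 ± 0.26, was called (limma adjusted p = 0.000526) with each mouse left out and under every other alternative. These values rest on 41 to 136 reads per Sharpin cpdm library.

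*Dntt*, level in WT, rose with maturation in both mutants. In Hoil ΔCd4 mice it was at 99.3, 109 and 117 CPM in the low and at 116, 191 and 193 CPM in the high fraction, a log2 change of 0.63 ± 0.15 (limma adjusted p = 0.00327). The lowest high library, of mouse 1, lay just under the highest low library, of mouse 3, and without mouse 2 or mouse 3 the adjusted p was 0.0648 or 0.0554. In Sharpin cpdm mice it was at 81.7, 78.8 and 90.3 CPM in the low and at 106, 138 and 113 CPM in the high fraction, without overlap (0.56 ± 0.13, limma adjusted p = 0.00185, but 0.0717 without mouse 2). The difference from the WT change was 0.65 ± 0.19 for Hoil ΔCd4 (limma adjusted p = 0.218) and 0.58 ± 0.18 for Sharpin cpdm (0.0944), so neither was called. Both were called without Hoil ΔCd4 mouse 1 (limma adjusted p = 0.00203 and 0.00103), and the Sharpin cpdm one also with only the groups compared (0.00202). That mouse is in none of the groups of the Sharpin cpdm difference, whose value hardly moved without it (0.581). In the female mice the differences were 0.744 (Hoil ΔCd4) and 0.82 (Sharpin cpdm).

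*Ptcra* was higher in MHC I high cells of both mutants too. Hoil ΔCd4 libraries gave 0.871, 1.21 and 0.746 CPM in the low and 2.73, 3.41 and 3.07 CPM in the high fraction (log2 change 1.69 ± 0.32, limma adjusted p = 5.75e-05). Sharpin cpdm libraries gave 0.338, 0.516 and 0.837 CPM in the low and 1.60, 2.48 and 2.57 CPM in the high fraction (1.98 ± 0.27, limma adjusted p = 2.87e-07). The rises were not shown to differ from that of WT (limma adjusted p = 0.845 and 0.415).

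*Arpp21* turned from a fall in WT to a rise in the mutants. Hoil ΔCd4 mice had 34.2, 33.6 and 33.3 CPM in the low and 35.6, 44.7 and 45.9 CPM in the high fraction. The rise of 0.33 ± 0.12 (limma adjusted p = 0.0235) was not called without mouse 2 (0.194) or mouse 3 (0.262), nor without the mouse as a block (0.0546), nor with the mouse number as a block (0.0742). Sharpin cpdm mice had 21.1, 25.5 and 26.4 CPM in the low and 28.1, 39.2 and 33.9 CPM in the high fraction, a rise of 0.51 ± 0.10 (limma adjusted p = 0.000118). The difference from the WT change was 0.95 ± 0.14 for Sharpin cpdm (limma adjusted p = 0.000526), called in all alternatives. It was 0.78 ± 0.15 for Hoil ΔCd4 (limma adjusted p = 0.0215), a call that was lost without WT mouse 2 or 3 or Hoil ΔCd4 mouse 2 or 3, with adjusted p between 0.0572 and 0.343, and under edgeR (0.197) or no mouse block (0.121).

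*Cd24a* fell in every genotype, to 36.7% ± 7.0 (SD, n = 3) of the MHC I low level for WT, 40.7% ± 6.5 for Hoil ΔCd4 and 34.4% ± 2.1 for Sharpin cpdm mice. Its levels were 186, 194 and 242 CPM in the low and 68.6, 93.6 and 89.8 CPM in the high fraction of Hoil ΔCd4 mice. In Sharpin cpdm mice they were 167, 154 and 150 CPM in the low and 60.6, 53.5 and 48.2 CPM in the high fraction. The difference from the WT change was 0.17 for Hoil ΔCd4 (95% interval -0.19 to 0.53) and -0.086 for Sharpin cpdm (-0.42 to 0.24). These intervals hold 0 and leave room for differences of their width.

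**Figure D3:**
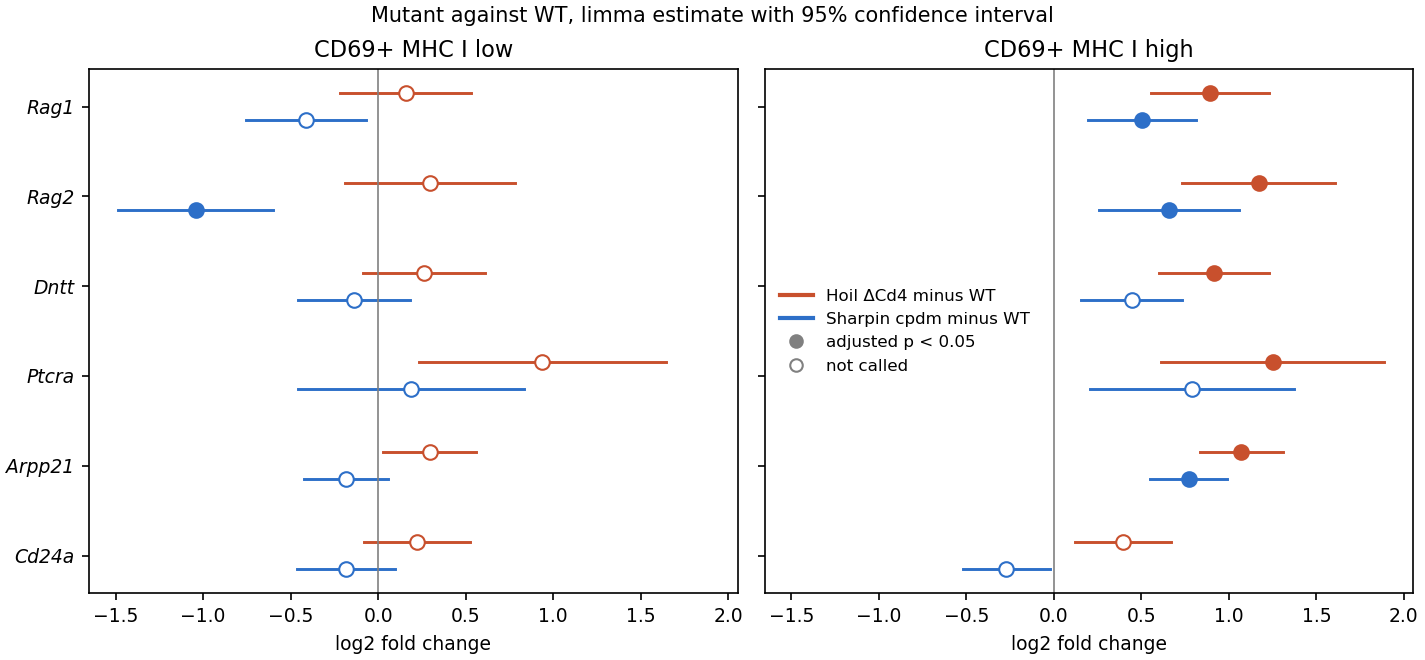
Log2 fold change of each mutant against WT (x axis; 0 means no difference) in MHC I low cells (left) and MHC I high cells (right), with the limma estimate as a point, its 95% confidence interval as a line, and filled points for adjusted p under 0.05. In the right panel 5 Hoil ΔCd4 and 3 Sharpin cpdm points are filled, all above 0, and in the left panel only *Rag2* in Sharpin cpdm is filled, at -1.04.

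In Hoil ΔCd4 mice no gene of the set was called against WT in MHC I low cells, and most were higher in MHC I high cells. The direct test of the change between fractions was called for *Arpp21* only. For the other genes a difference between the fractions was thus not shown in the main fit. Among MHC I low cells limma called 0 of the 6 genes, with 2 at an unadjusted p under 0.05 (*Ptcra* 0.0111 and *Arpp21* 0.0304) and 0 by edgeR or DESeq2, where 0.985% of all genes were called. All 6 estimates were above 0, between 0.16 and 0.94 on the log2 scale. The Hoil ΔCd4 libraries lay above all WT libraries for 3 genes (*Dntt*, *Ptcra* and *Arpp21*), as 7.07% of all genes did. In the 5 female mice *Dntt* alone was called (0.36, limma adjusted p = 0.00791).

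In MHC I high cells 5 of 6 genes were higher in Hoil ΔCd4 than in WT by limma, where 3.84% of all genes were called higher and 6.65% in either direction. For these 5 every Hoil ΔCd4 library lay above every WT library, as 10.1% of all genes did. The 6 genes had a median log2 difference of 0.99, against -0.00027 over all genes tested. *Arpp21* averaged 42.1 ± 5.6 CPM (SD, n = 3) against 21.01 ± 3.0 in WT, 2.10-fold higher (log2 1.07 ± 0.12 SE, limma adjusted p = 1.68e-06). It was called in each alternative. The folds given here come from the limma fit with sample quality weights, so they need not equal the ratios of the means beside them. *Rag2* averaged 10.9 ± 3.5 against 5.005 ± 0.71 CPM (2.25-fold, limma adjusted p = 0.00113) and *Rag1* 149 ± 36 against 84.7 ± 8.2 CPM (1.86-fold, limma adjusted p = 0.0047). *Dntt* averaged 167 ± 44 against 89.6 ± 3.6 CPM (1.88-fold, limma adjusted p = 0.00231). *Ptcra* was at 3.07 ± 0.34 against 1.403 ± 0.26 CPM (2.38-fold, limma adjusted p = 0.0127). *Cd24a*, at 84.0 ± 13.4 against 65.3 ± 12.3 CPM, missed the threshold (log2 0.39, limma adjusted p = 0.0823).

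Hoil ΔCd4 mouse 1 gave the lowest MHC I high level of its group for 6 of 6 genes. In the other groups Sharpin cpdm mouse 1 did so for 5 and WT mouse 3 for 4 of the 6. The number of genes called was 1 without WT mouse 3 or without Hoil ΔCd4 mouse 2, 2 without Hoil ΔCd4 mouse 3 and 3 without WT mouse 1, and the lost calls had adjusted p between 0.052 and 0.314. With all mice kept, *Ptcra* lost the call without quality weights (limma adjusted p = 0.0695) and *Dntt* with only the groups compared (0.0557). *Cd24a* was called as a sixth gene without Hoil ΔCd4 mouse 1 (0.0186) and without WT mouse 2 (0.0473). In the 5 female mice the differences were 1.01 for *Rag1*, 1.45 for *Rag2*, 1.11 for *Dntt*, 1.25 for *Ptcra* and 1.18 for *Arpp21* on the log2 scale, all called except that of *Ptcra* (limma adjusted p = 0.0947).

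In Sharpin cpdm mice *Rag2* differed from WT in opposite directions in the 2 fractions. In MHC I low cells only *Rag2* was called, lower in the mutant, where 12.2% of all genes were called and 6.92% lower. The Sharpin cpdm libraries lay under all WT libraries for 3 genes, *Rag1*, *Rag2* and *Cd24a*, as 14.3% of all genes did. It averaged 4.04 ± 1.12 CPM in Sharpin cpdm against 8.41 ± 0.98 CPM in WT and was lower by 1.04 ± 0.22 on the log2 scale (limma adjusted p = 0.00194), without overlap and in every alternative. *Rag1* averaged 121 ± 11 against 163 ± 8 CPM in the same cells and did not overlap either, yet its log2 difference of -0.41 ± 0.16 was not called (limma adjusted p = 0.11). It was called within the female mice (0.0391) and when the fit held only the groups compared (4.53e-05).

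In MHC I high cells 3 of 6 genes were higher in Sharpin cpdm than in WT, where 4.15% of all genes were called higher and 8.62% in either direction. Every Sharpin cpdm library lay above every WT library for 3 genes, *Dntt*, *Ptcra* and *Arpp21*, as 11.5% of all genes did. *Arpp21* averaged 33.7 ± 5.5 against 21.01 ± 3.0 CPM, a log2 difference of 0.77 ± 0.11 (limma adjusted p = 2.11e-05) that was called in every alternative. *Rag1* averaged 114 ± 22 against 84.7 ± 8.2 CPM, with WT mouse 2 above Sharpin cpdm mouse 1 (0.51 ± 0.14, limma adjusted p = 0.0449). *Rag2* averaged 7.58 ± 2.02 against 5.005 ± 0.71 CPM, where WT mouse 1 lay above Sharpin cpdm mouse 1 (0.66 ± 0.19, limma adjusted p = 0.033). Both calls were near the threshold: *Rag1* lost it in 12 and *Rag2* in 10 of 21 alternatives, edgeR (0.238 and 0.2) and DESeq2 (0.142 and 0.151) among them. Without WT mouse 3 the adjusted p was 0.459 for *Rag1* and 0.392 for *Rag2*, and without WT mouse 2, Sharpin cpdm mouse 2 or Sharpin cpdm mouse 3 also 1 gene was called. Without WT mouse 1 both *Rag1* (0.264) and *Rag2* (0.0971) lost the call, and *Cd24a* was called lower (0.0484). *Dntt* (119 ± 17 CPM, limma adjusted p = 0.0578), *Ptcra* (2.22 ± 0.54 CPM, 0.0813) and *Cd24a* (54.1 ± 6.2 CPM, 0.18) were not called. *Dntt* was called with only the groups compared (limma adjusted p = 0.00359) and without Hoil ΔCd4 mouse 1 (0.000155). That mouse is in neither group. Leaving it out hardly moved the log2 difference (0.441 against 0.444), so the lower p came from the fit shared by all groups. In the female mice the log2 difference of *Dntt* was 0.619.

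Set against each other, the mutants differed in 2 genes in MHC I low and 1 gene in MHC I high cells, where 9.48% (5.12% higher) and 6.73% (3.71% higher) of all genes were called. All 3 were higher in Hoil ΔCd4 cells. *Rag1* in MHC I low cells, also higher in Hoil ΔCd4, missed the threshold in the main fit (log2 0.57, limma adjusted p = 0.0635). It was called in 10 of 21 alternatives, edgeR (0.043) and DESeq2 (0.00632) among them. In the low fraction 5 genes did not overlap between the mutants (13.6% of all genes were higher in Hoil ΔCd4 without overlap), and in the high fraction 2 did not (11.5%). *Rag2* was 2.53-fold higher in Hoil ΔCd4 than in Sharpin cpdm MHC I low cells (limma adjusted p = 0.000697, called in every alternative) and *Arpp21* 1.39-fold higher (0.0223). *Cd24a* was 1.58-fold higher in the MHC I high cells of Hoil ΔCd4 (limma adjusted p = 0.00669). The *Arpp21* call was lost without any single Hoil ΔCd4 mouse or without Sharpin cpdm mouse 1 (adjusted p 0.0579 to 0.0718), and the *Cd24a* call without mouse 2 or 3 of either mutant (0.0538 to 0.0873). Both calls were lost in the female mice (limma adjusted p = 0.217 for *Arpp21* and 0.0513 for *Cd24a*), where *Rag1* (0.00276) and *Dntt* (0.000607) were called in MHC I low and *Dntt* (0.00389) in MHC I high cells. Without Hoil ΔCd4 mouse 1, *Rag1* (0.0251) and *Dntt* (0.00703) were called in MHC I low and *Rag1* (0.0179), *Rag2* (0.0256) and *Dntt* (1.54e-05) in MHC I high cells.

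Of 13 genes of the V(D)J joining machinery, which rejoins the cut ends, 4 rose and 3 fell with maturation in WT, shares close to the 27.5% and 26.8% of all genes. *Lig4*, the ligase of end joining, fell from 49.6 ± 2.8 to 28.4 ± 0.8 CPM (log2 -0.79, limma adjusted p = 6.58e-11), and *Hmgb2*, a DNA-bending cofactor of the recombinase, rose from 9.51 ± 0.35 to 24.9 ± 3.1 CPM (1.39, 1.43e-13). In MHC I high cells 3 of 13 were higher in Hoil ΔCd4 (3.84% of all genes were), and 2 were higher and 1 lower in Sharpin cpdm (4.15% and 4.47% of all genes), with *Hmgb2* the largest rise in both (0.47 and 0.51). For the MHC I low fraction of Sharpin cpdm 1 was higher and 3 were lower (5.31% and 6.92% of all genes), among them *Hmgb2* (0.41, limma adjusted p = 0.0192) and *Lig4* (-0.34, 0.0101). *Polm*, a polymerase of end joining, was lower in Sharpin cpdm MHC I high cells (-0.29, limma adjusted p = 0.0108).

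Of 17 transcription factors of the DP stage, 13 fell and 2 rose with maturation in WT (26.8% and 27.5% of all genes). *Foxo1*, a forkhead factor, rose most (log2 1.68, limma adjusted p = 9.99e-16). In MHC I high cells 2 of 17 were higher in Hoil ΔCd4 and 1 in Sharpin cpdm, and 0 were lower in either, where 3.84% and 4.15% of all genes were higher. In the low fraction *Myb* was higher in Hoil ΔCd4 (0.32, limma adjusted p = 0.00605) and lower in Sharpin cpdm (-0.20, 0.0218), and *Lef1* was higher in Sharpin cpdm (0.36, 0.000391).

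**Figure D4:**
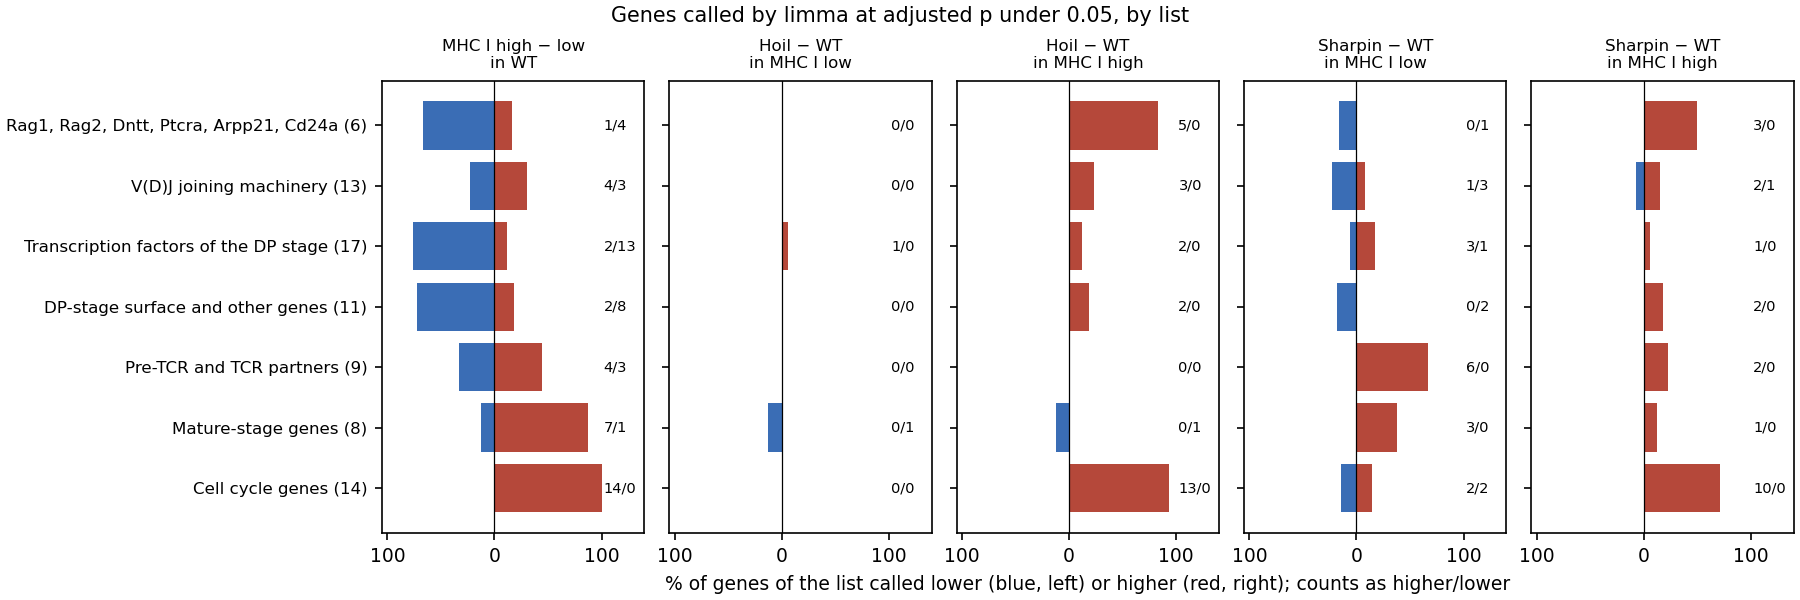
Percentage of each list's genes (number tested in brackets) that limma called lower (left, blue) or higher (right, red) in 5 comparisons, with the counts printed as higher/lower. The cell cycle list is called higher for 14 of 14 genes with maturation in WT, for 13 in Hoil ΔCd4 and for 10 in Sharpin cpdm against WT in the high fraction, and for 0 in Hoil ΔCd4 against WT in the low fraction.

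Cell cycle genes rose with maturation in WT, where 4 of the 6 genes of the set fell. All 14 listed were higher in MHC I high than in MHC I low cells in each genotype. Of all genes 27.5% (WT), 23.5% (Hoil ΔCd4) and 27.2% (Sharpin cpdm) were. The difference from the WT change was called, as higher, for 3 of 14 in Hoil ΔCd4 (0.297% of all genes) and 5 of 14 in Sharpin cpdm (2.2%). In MHC I high cells 13 of 14 were higher in Hoil ΔCd4 than in WT, with a median log2 difference of 0.59 (3.84% of all genes were higher), and 10 of 14 in Sharpin cpdm, with a median of 0.41 (4.15%). *Birc5*, which encodes survivin, a protein of dividing cells, had MHC I high means of 17.4 ± 2.5 CPM (WT), 26.1 ± 1.9 CPM (Hoil ΔCd4) and 25.7 ± 5.6 CPM (Sharpin cpdm), and MHC I low means of 3.33 ± 0.26, 4.31 ± 0.68 and 2.24 ± 0.48. The early double-negative marker sum in MHC I high libraries was 154 to 167 CPM in Hoil ΔCd4, 174 to 184 CPM in Sharpin cpdm and 142 to 169 CPM in WT. The list itself was split. Of 6 markers tested, 2 were higher and 2 lower in Sharpin cpdm than in WT (4.15% and 4.47% of all genes). In Hoil ΔCd4 0 were higher and 1 was lower (3.84% and 2.81%). In Sharpin cpdm MHC I high cells *Dtx1* averaged 120 CPM against 88.2 in WT, and *Kit* 27.1 against 35.2. The part of dividing or less mature cells in the differences of *Rag1*, *Rag2*, *Dntt*, *Ptcra* and *Arpp21* was not tested.

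Of 11 other genes of the DP stage, surface proteins and others such as *Endou*, 8 fell and 2 rose with maturation in WT. Over all genes tested 26.8% fell and 27.5% rose. The largest fall was that of *Ccr9*, a chemokine receptor (log2 -1.43, limma adjusted p = 1.3e-20), and the largest rise that of *Cd8a* (1.72, 1.8e-19). In MHC I high cells 2 of 11 were higher in each mutant, as were 3.84% (Hoil ΔCd4) and 4.15% (Sharpin cpdm) of all genes. Among 9 partners of the pre-T-cell receptor and T-cell receptor, 4 rose and 3 fell in WT, beside 27.5% and 26.8% of all genes. The extremes were *Cd3e*, which rose by 0.35 (limma adjusted p = 7.67e-08), and *Trbc1*, which fell by 0.43 (4.53e-09). In MHC I low cells 6 of these 9 were higher in Sharpin cpdm than in WT and 0 lower, with a median log2 difference of 0.21, where 5.31% of all genes were higher. Of 8 genes of mature thymocytes, 7 rose and 1 fell in WT, where 27.5% and 26.8% of all genes did. *S1pr1*, the receptor for thymic exit, went from 0.863 ± 0.032 to 80.04 ± 2.4 CPM (WT means). It reached 59.8 ± 8.0 CPM in Hoil ΔCd4 and 72.5 ± 2.6 CPM in Sharpin cpdm MHC I high cells. *Il7r* fell (-0.44, limma adjusted p = 2.43e-10).

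**Figure D5:**
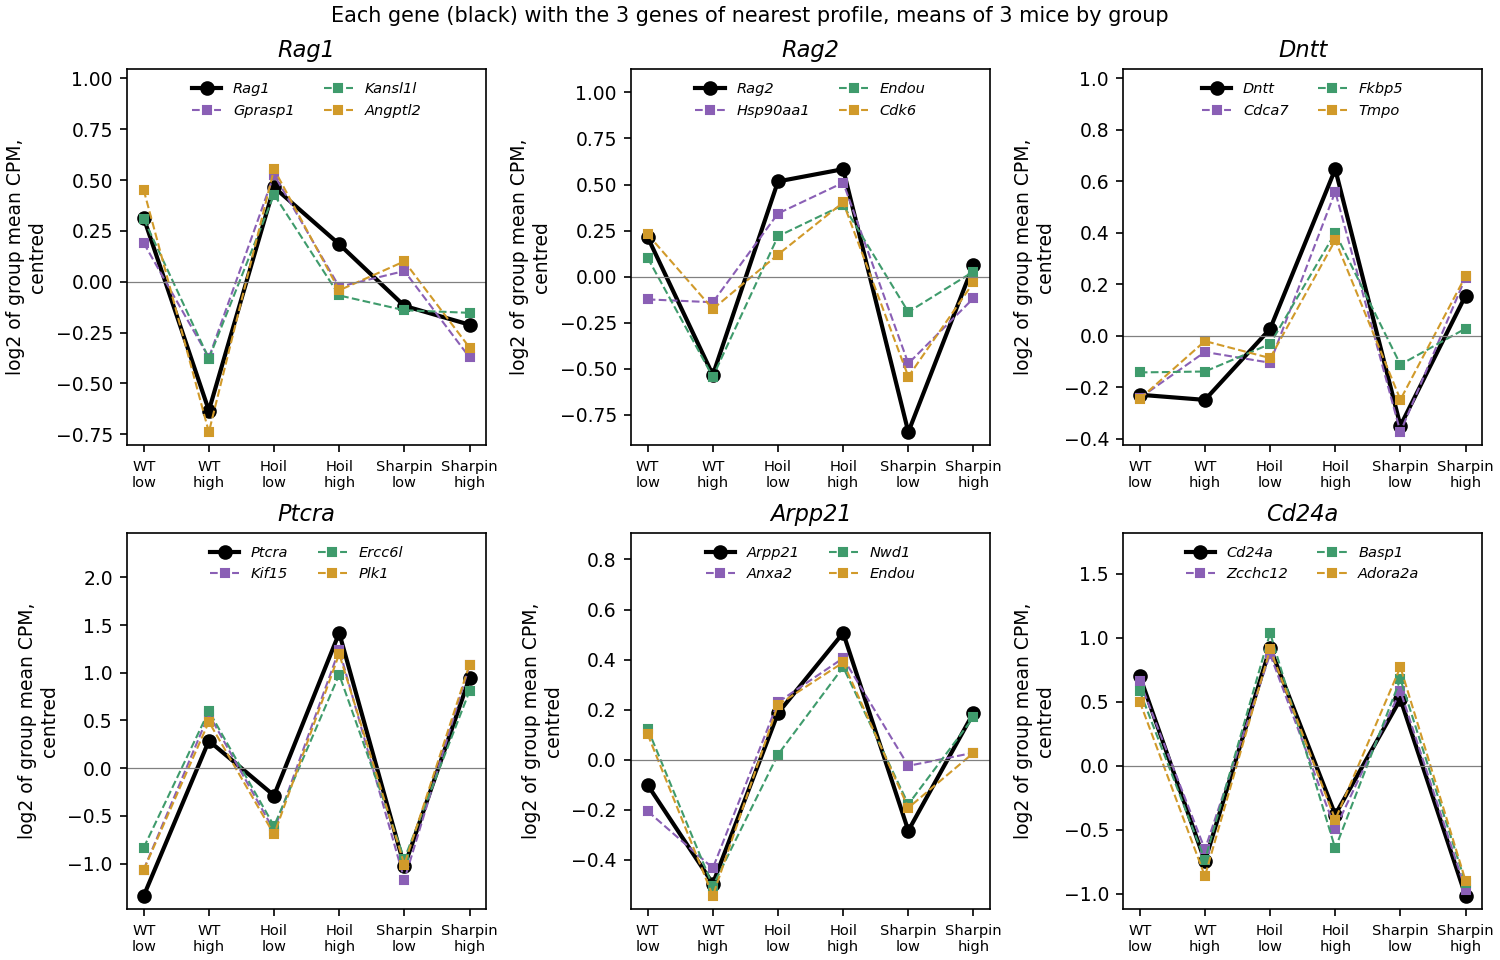
Log2 of the group mean CPM, centred for each gene (y axis), over the 6 groups (x axis), for each gene of the set (black circles) and the 3 genes of nearest profile (coloured squares). *Ptcra* and its 3 nearest genes are higher in MHC I high than in MHC I low cells in every genotype, and *Cd24a* and its 3 are lower.

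The likeness of profiles was measured as the root mean square distance of centred log2 CPM over the 18 libraries. Within the set *Dntt* and *Arpp21* were nearest (0.207) and *Ptcra* and *Cd24a* farthest (1.63). *Rag1* and *Rag2*, neighbours on the chromosome, were 0.406 apart, and each was nearer to *Arpp21* (0.341 and 0.357). Among all genes tested, *Gprasp1*, *Kansl1l* and *Angptl2* were nearest to *Rag1* (0.222 to 0.224, against a median of 0.464 over all genes). *Hsp90aa1*, *Endou* and *Cdk6* were nearest to *Rag2* (0.364 to 0.425), and *Cdca7*, *Fkbp5* and *Tmpo* to *Dntt* (0.164 to 0.2). *Kif15*, *Ercc6l* and *Plk1* were nearest to *Ptcra* (0.315 to 0.323), *Anxa2*, *Nwd1* and *Endou* to *Arpp21* (0.183 to 0.232) and *Zcchc12*, *Basp1* and *Adora2a* to *Cd24a* (0.134 to 0.18). The libraries shared by all genes and their group differences enter these distances. Once each group's mean was taken off, so that only differences between mice of a group were left, 1 of the 3 genes remained for *Ptcra* (*Ercc6l*) and 0 for the other 5.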

How the data were processed

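RNA was sequenced from 18 sorted samples. Reads (75 bases, single end) were aligned by the authors to mm10 with Rsubread, and featureCounts gave the reads per gene. The deposited values are raw counts, with replicates not pooled. Versions, strand and multi-read settings were not given in the sources used here.

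From the counts, log2 CPM (TMM, prior count 1) were computed for genes reaching 0.5 CPM in 3 or more samples. *Xist*, Y-linked and predicted genes and those with no symbol were left out, and 12798 remained. One limma model of 6 groups was fitted with sample quality weights (0.628 to 2.42), mouse as a random block (correlation 0.224), abundance trend and robust variance. P-values were adjusted by Benjamini-Hochberg over all genes tested and called under 0.05. Intervals are 95%. The tools were edgeR 4.0.16, limma 3.58.1, statmod 1.5.0 and DESeq2 1.42.0 in R 4.3.3, and the tests were checked on simulated counts.

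The fractions of 1 mouse pair the samples: across genes, r between their deviations from the group means was 0.0702 to 0.256 over the 9 mice.

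The 6 genes and all lists were chosen with earlier results of these data known. Named from each list were the largest called rise and fall in WT and, for joining genes and transcription factors, against WT. Some of these are not reported here. Alternatives were edgeR, DESeq2, library-size scaling, other filters and prior count, no weights, other blocks, fewer groups, *Xist* as a covariate and each mouse left out. Symbols came from RefSeq by Entrez Gene ID (25275 of 27179).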

Additional observations from a re-analysis of the deposited data

Results flagged for a closer look

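Change with maturation differed from that of WT, by the test of the difference itself, for *Arpp21* in Hoil ΔCd4 (0.776 on the log2 scale, limma adjusted p = 0.0215) and for *Rag1* (0.919, 0.0201), *Rag2* (1.70, 0.000526) and *Arpp21* (0.953, 0.000526) in Sharpin cpdm mice. For *Rag2* and *Arpp21* the 3 Sharpin cpdm mice all moved up while the 3 WT mice all moved down. The WT libraries are shared by these tests.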

How the results depend on the processing

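Over 66 values (6 genes in 11 comparisons) and 22 alternatives for comparisons of fractions or 21 of genotypes (1 fewer for *Ptcra*, which was not tested under a minimum of 10 counts), 1276 of 1404 recomputed values kept direction and call, 73 lost and 49 gained a call, and 6 turned direction, none of them called. Those were *Dntt* in WT without WT mouse 1 (0.0078), *Rag2* in Hoil ΔCd4 with each mouse as a fixed block (-0.00665) or without mouse 3 (-0.163), and, for Sharpin cpdm against WT, *Dntt* in MHC I low with *Xist* as a covariate (0.0277), *Ptcra* in MHC I low without Sharpin cpdm mouse 3 (-0.0629) and the *Cd24a* difference in change without WT mouse 2 (0.0484). With a mouse left out, these 4 values ranged from -0.0429 to 0.0078 (*Dntt*), -0.163 to 0.207 (*Rag2*), -0.0629 to 0.509 (*Ptcra*) and -0.218 to 0.0484 (*Cd24a*). The cause was not tested.

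With the mouse block left out (no replicate block), the genes called were 1 in place of 3 for Sharpin cpdm against WT in MHC I high and 0 in place of 1 for the Hoil ΔCd4 difference in change, and with the mouse number as a block 2 in place of 1 for Sharpin cpdm against WT in MHC I low, 2 in place of 1 for Hoil ΔCd4 against Sharpin cpdm in MHC I high and 0 for the Hoil ΔCd4 difference in change, which was 2 with each mouse as a fixed block. Sharpin cpdm against WT in MHC I high gave 1 with edgeR, DESeq2 or no quality weights. The Hoil ΔCd4 difference in change gave 0 with edgeR or no filter. With only the groups compared, 3 genes were called for Sharpin cpdm against WT and 5 for Hoil ΔCd4 against Sharpin cpdm in MHC I low, and with no filter 2 for the latter pair in MHC I high. In the female mice, an alternative chosen after seeing the data, counts were 1 for Hoil ΔCd4 and 2 for Sharpin cpdm against WT in MHC I low and 4 for the Hoil ΔCd4 difference in change.

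With each mouse left out in turn, counts ranged from 3 to 5 for WT, 2 to 4 for Hoil ΔCd4 and 4 to 5 for Sharpin cpdm fractions, from 0 to 0 (MHC I low) and 1 to 6 (high) for Hoil ΔCd4 against WT, from 1 to 2 and 1 to 4 for Sharpin cpdm against WT, from 1 to 3 and 0 to 4 between the mutants, and from 0 to 2 (Hoil ΔCd4) and 2 to 4 (Sharpin cpdm) for the difference in change. *Ptcra*, with 5 to 45 reads per library, is limited most by depth.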
